A study of Rattus norvegicus with 12 samples.

Results

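Rat tissue around implants of MFN+GelMA was compared with tissue around GelMA alone at 2 weeks, in 6 of the 12 RNA-seq libraries of the study. GelMA is gelatin methacryloyl, a hydrogel cured with light. The labels do not spell out MFN; the study's title speaks of microfiber. The 2 groups, GelMA 2W and MFN+GelMA 2W, held 3 libraries each; GelMA 4W and MFN+GelMA 4W held 3 each at 4 weeks. Every group, controls included, carried GelMA, so no library shows tissue without an implant. The labels name the tissue as subcutaneous tissue or muscle of animals kept in a specific-pathogen-free room. They give no strain, age, genotype or animal for a library, so a p-value here reflects the spread among these libraries alone, and that spread may be technical. Of 21797 genes in the deposited table, 11739 had at least 1 FPKM (fragments per length of transcript and size of library) in 3 or more of the 6 libraries of 2 weeks, and these were tested. A gene below 1 FPKM in all 3 libraries of a group could pass this minimum only through the other group. For such genes the direction and the lack of overlap come with the filter. Of the genes named below, Cxcl6, Tnnt2, Kif26b, Coro6, Cfi, Zic1, Aard and AABR07054264.1 are among them.

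An implanted gel is met first by neutrophils and then by macrophages, which clear debris and, on material they cannot digest, may fuse into giant cells. Fibroblasts follow, lay down collagen and elastic fibres and remodel them with proteases and protease inhibitors. In connective tissue, progenitor-like fibroblasts that express Pi16 and Dpp4 are regarded as a source of more specialised fibroblasts. Fibroblasts of different body sites also go on expressing transcription factors that record their embryonic origin, Hox genes among them.

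Depth was similar across the 6 libraries, at 11405095 to 13423034 fragments. It was estimated by taking the commonest deposited count-like value near 1 in each library as 1 fragment. A library of each group stood apart in its cell type genes. In MFN+GelMA replicate 2 the 17 skeletal muscle fibre genes found in the table summed to 1351 FPKM, against 20.9 to 34.3 FPKM in the other 5 libraries. Acta1, skeletal muscle actin, read 275 FPKM there and at most 0.615 FPKM in the other 5. That library was therefore treated as a possible mix of tissues. GelMA replicate 3 was low in vessel, blood and mast cell genes: its 19 endothelial genes summed to 234 FPKM against 640 to 754 FPKM in the other 5, its 10 mast cell genes to 8.34 FPKM against 32.5 to 115 FPKM, and its 7 red blood cell genes to 203 FPKM against 599 to 1729 FPKM. At 4 weeks GelMA replicate 2 stood apart in fat genes, with the adipocyte hormone Adipoq at 2118 FPKM against 32.0 and 18.0 FPKM in the other libraries of its group. Counts of called genes in a list are given without MFN+GelMA replicate 2 or GelMA replicate 3 of 2 weeks where they differ from those with all libraries. Lists and their members were chosen with earlier results of these data known. A share of a list set beside that of all genes therefore only describes the list, and no list was tested as a set. Of the labelled tissues, fibroblast markers were present in all 6 libraries, with the proteoglycan gene Dcn between 2615 and 3811 FPKM. Outside MFN+GelMA replicate 2, the skeletal muscle markers Acta1, Ckm, Myh4 and Mylpf read at most 1.46 FPKM at 2 weeks. Tnnt3, another marker of muscle fibres, read 14.0 to 23.8 FPKM in those 5 libraries and 101 FPKM in that replicate. The epidermal keratin Krt5 was listed at 0 throughout.

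**Figure D1:**
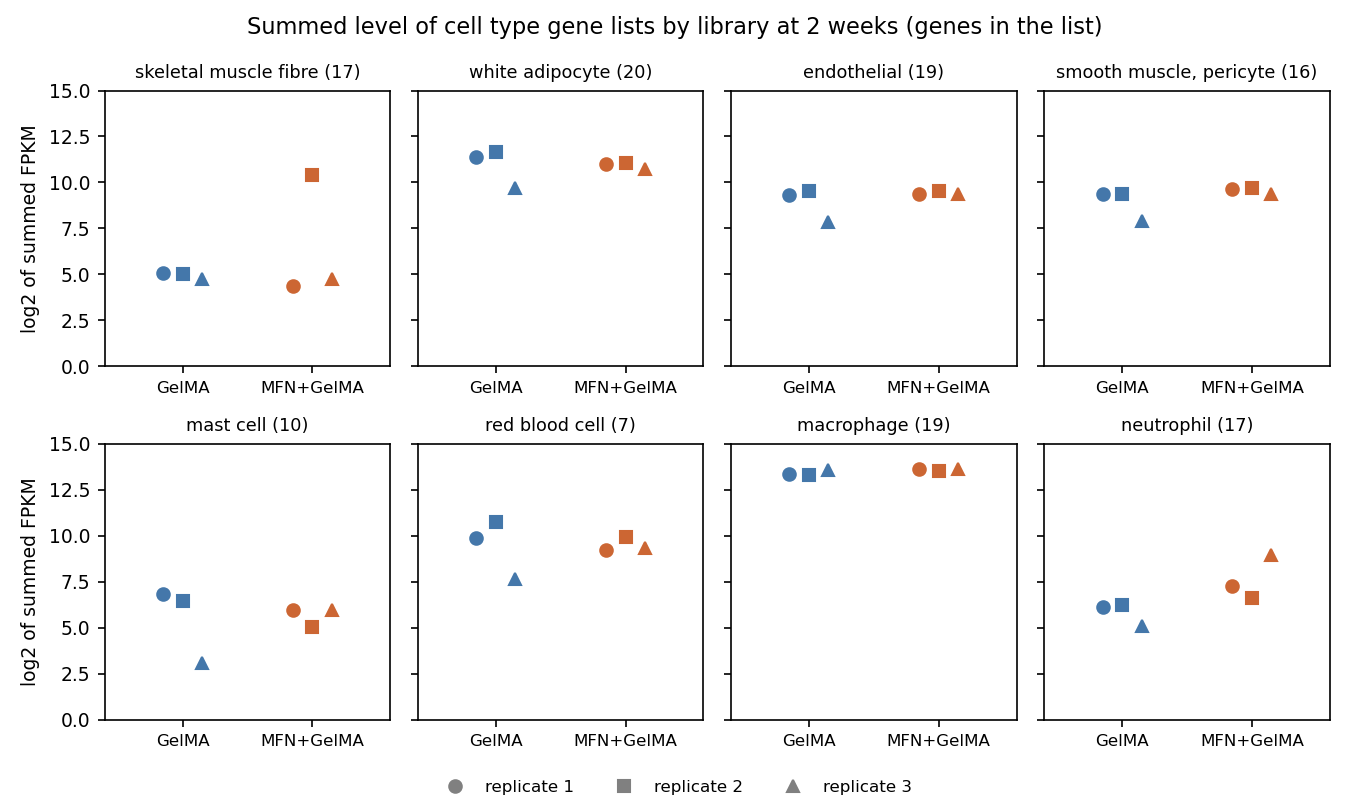
Log2 of the summed FPKM of 8 cell type gene lists in each library of 2 weeks, with the number of genes in brackets; each symbol is 1 library. MFN+GelMA replicate 2 stands at 1351 FPKM for skeletal muscle fibre genes, and GelMA replicate 3 lies lowest for endothelial, smooth muscle, mast cell and red blood cell genes.

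With MFN in the gel, tissue at 2 weeks had more mRNA of a neutrophil-attracting chemokine and of the protease inhibitor Timp1, and less of elastin, of the developmental transcription factor Zic1 and of some markers of progenitor fibroblasts. By limma on log2(FPKM + 1), with Benjamini-Hochberg adjustment over all genes and a threshold of 0.05, 68 of 11739 genes changed (0.579%). Of these 26 were higher with MFN+GelMA (0.221%) and 42 lower (0.358%), and 1679 genes had an unadjusted p under 0.05. Without MFN+GelMA replicate 2 the count was 167 (1.42%), of which 77 were higher (0.656%) and 90 lower (0.767%), and 60 of the 68 genes were among them. Without GelMA replicate 3 it was 52 (0.443%). The fit takes its spread from all 12 libraries. With only the 6 libraries of 2 weeks 15 genes passed (0.128%), 14 of them among the 68; Zic1, Pi16, Ddit4, C1qtnf7 and Aldh1a3 were among those 14, and Cxcl6, Timp1 and Eln were not. The 2 groups did not overlap for any of the 68 genes, which comes largely with choosing them on these same libraries. Among all tested genes 18.3% did not overlap, 9.72% with MFN+GelMA above and 8.62% below. Between means 53 of the 68 differed at least 2-fold. In 46 of the 68, MFN+GelMA replicate 2 was the library of its group nearest to GelMA, 19 of the 26 higher and 27 of the 42 lower genes. The same count over all tested genes was not made. Across these, that library correlated with GelMA replicates 1, 2 and 3 at r = 0.964, 0.959 and 0.948. With MFN+GelMA replicates 1 and 3 it correlated at r = 0.964 and 0.958. Single libraries weighed on the count: it dropped to 23 when MFN+GelMA 2W replicate 1 was left out and to 24 when GelMA 2W replicate 2 was. Leaving out MFN+GelMA 2W replicate 3 gave 29 genes, leaving out its 4W counterpart gave 40, and each of the others gave 47 or more. In all 12 such fits 18 of the 68 genes passed. Fold changes below are differences on the log2(FPKM + 1) scale with their standard error, which understates the change of genes of low level.

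Cxcl6, a chemokine that attracts neutrophils (chr14:18860263-18862407, minus strand, rn6), had the largest rise. It read 0.582, 0.107 and 0.106 FPKM in the GelMA libraries and 61.0, 5.07 and 64.1 FPKM in MFN+GelMA replicates 1, 2 and 3. Replicates 1 and 3 were far above all GelMA libraries, and replicate 2 lay between them and GelMA. The log2 fold change was 4.54 ± 0.69 (SE, limma adjusted p = 0.0152), and 5.67 without replicate 2 (limma adjusted p = 7.54e-07). Leaving out 1 library at a time lost the call in 3 of 12 fits, at a limma adjusted p of up to 0.0717. It was also lost with the 6 libraries of 2 weeks alone (limma adjusted p = 0.119).

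Of 15 tested genes of retinoid storage and synthesis 1 rose and 1 fell, beside backgrounds of 0.221% and 0.358%, and the list median was 0.16 against 0.01 over all tested genes. The gene that fell was Aldh1a3, an enzyme that makes retinoic acid. It read 6.55, 6.42 and 6.28 FPKM with GelMA and 1.54, 1.74 and 0.870 FPKM with MFN+GelMA, a log2 fold change of -1.66 ± 0.21 (SE, limma adjusted p = 0.00622). Every MFN+GelMA library was below every GelMA library. Lrat, which esterifies retinol for storage, had a log2 fold change of 1.36 and missed the threshold (limma adjusted p = 0.0626).

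Timp1, an inhibitor of matrix metalloproteinases, rose from 80.0, 58.9 and 80.2 FPKM to 269, 184 and 596 FPKM. All MFN+GelMA libraries were above all GelMA libraries, with a wide spread among them. Its log2 fold change was 2.08 ± 0.38 (SE, limma adjusted p = 0.0396), but it passed in only 4 of the 12 fits without a library and missed with the 6 libraries of 2 weeks alone (limma adjusted p = 0.119). It overlaps 3 other genes, so the division of reads there is uncertain. Ddit4, an inhibitor of the growth kinase mTOR that is induced by stress, rose from 10.9, 13.8 and 8.57 FPKM to 38.0, 34.1 and 54.0 FPKM. The groups were well apart, and the change of 1.83 ± 0.19 (SE, limma adjusted p = 0.00272) passed in all 12 fits.

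Tnnt2, the troponin T of the embryonic and heart sarcomere, read 0.909, 0.807 and 0.115 FPKM with GelMA and 3.87, 5.03 and 5.20 FPKM with MFN+GelMA. The library with muscle fibre signal was not the highest of its group. The change was 1.85 ± 0.23 (SE, limma adjusted p = 0.00612) and 1.81 without that library (limma adjusted p = 0.0113). Jph2, a membrane-anchoring protein of muscle, and Coro6, an actin-binding coronin, also rose, by 1.24 (limma adjusted p = 0.0479) and 1.30 (limma adjusted p = 0.0172). Without MFN+GelMA replicate 2 Jph2 missed the threshold (limma adjusted p = 0.0576). None of the 4 tested genes of the skeletal muscle fibre list changed; 13 others did not reach the minimum of 1 FPKM in 3 libraries. The median of those 4 was 1.15, and -0.12 without replicate 2.

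The remaining genes with large rises encode matrix proteins, a transporter, a proteoglycan and a protease among others. Emilin1, a glycoprotein of elastic fibres, read 16.0, 17.1 and 24.8 FPKM with GelMA and 72.6, 37.4 and 95.2 FPKM with MFN+GelMA (1.70 ± 0.32, SE, limma adjusted p = 0.0409). Again replicate 2 was the MFN+GelMA library nearest to GelMA. The zinc transporter Slc39a14 (1.72), the kinesin-family gene Kif26b (1.64), the heparan sulfate proteoglycan Gpc1 (1.31) and the matrix protein Vwa1 (1.27) rose by the log2 amounts in brackets, each past the threshold by limma. Slc39a14 passed in only 3 of the 12 fits without a library, Gpc1 in 9, Vwa1 in 11 and Kif26b in all 12. Adamts4, a protease that cleaves aggrecan, rose by 1.53 (limma adjusted p = 0.0312). It was the single called gene of 12 Adamts proteases tested, against 0.221% of all genes higher, and missed without GelMA replicate 3 (limma adjusted p = 0.0788).

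**Figure D2:**
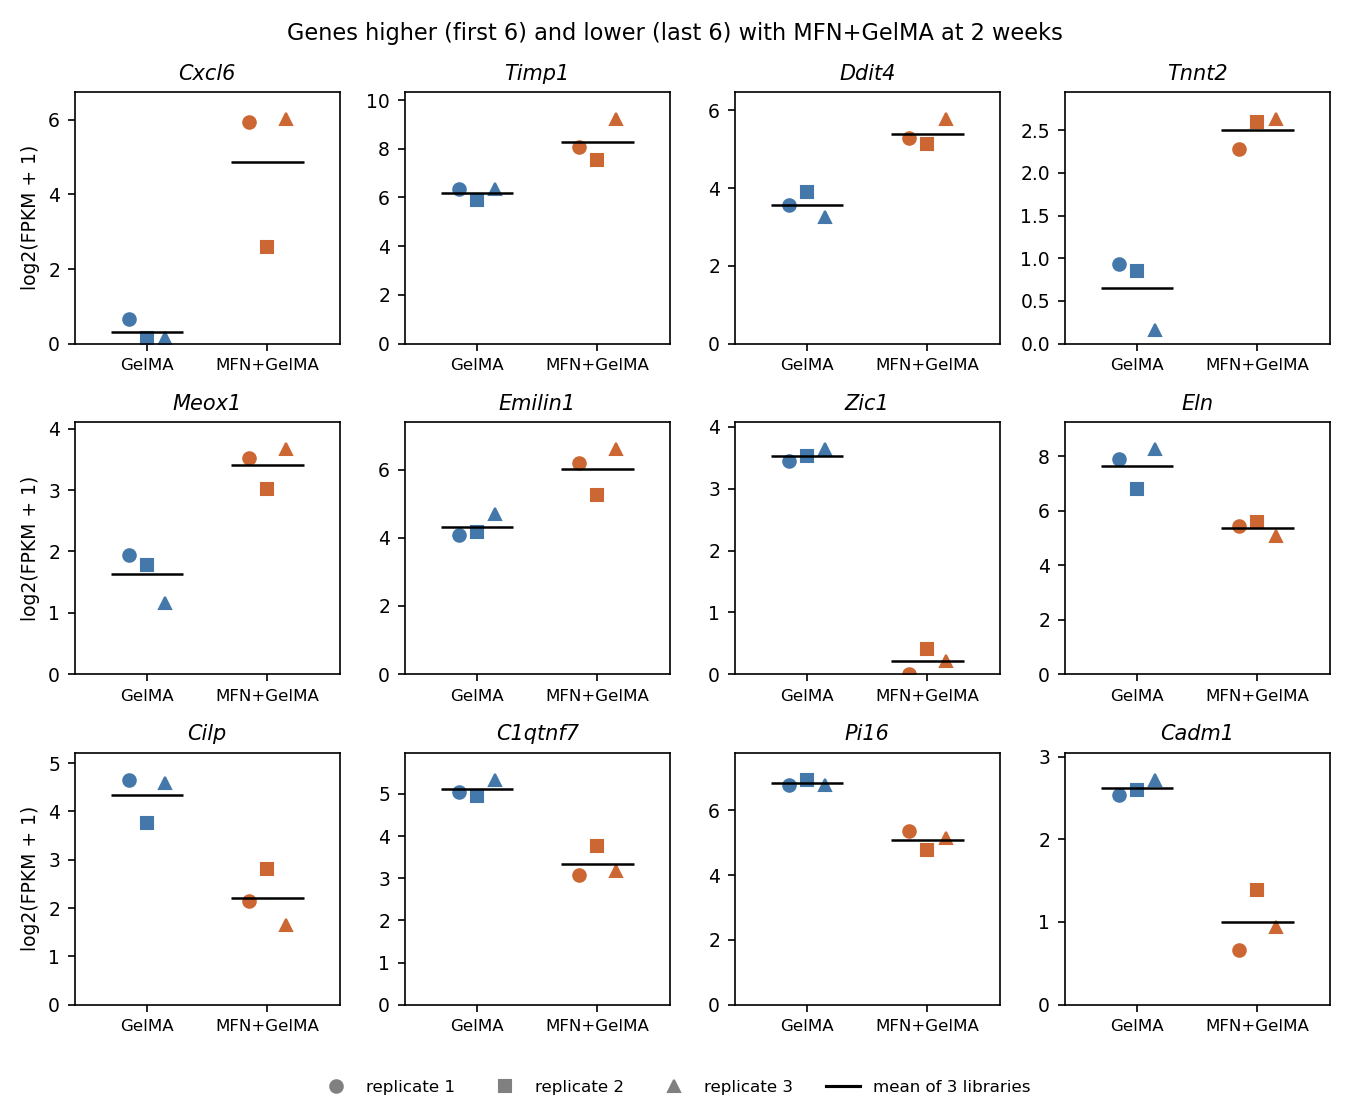
Log2(FPKM + 1) of 12 genes that changed at 2 weeks, 6 higher and 6 lower with MFN+GelMA; each symbol is 1 library and the line is the mean of 3. The groups do not overlap for any of the 12, and MFN+GelMA replicate 2 (square) lies nearest to GelMA for Cxcl6, Timp1, Emilin1 and Cadm1 among others.

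Among lower genes, Zic1, a zinc finger transcription factor of early patterning (chr8:98734294-98738446, minus strand, rn6), had the largest fall. It read 9.86, 10.5 and 11.4 FPKM with GelMA and 0, 0.333 and 0.162 FPKM with MFN+GelMA. No MFN+GelMA library came near the GelMA level. The log2 fold change was -3.32 ± 0.20 (SE, limma adjusted p = 1.19e-05). Meox1, a homeobox factor of the somites, went the other way, from 2.85, 2.45 and 1.24 FPKM to 10.5, 7.12 and 11.7 FPKM (1.77 ± 0.24, SE, limma adjusted p = 0.00743). Of 19 tested patterning transcription factors 1 rose and 2 fell, against 0.221% and 0.358% of all genes, and the list median was -0.17. Among 16 tested Hox cluster genes none changed; the smallest unadjusted p belonged to Hoxd4 (log2 fold change 0.69, limma adjusted p = 0.185).

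Eln, which encodes elastin, fell from 241, 111 and 305 FPKM to 42.6, 47.7 and 32.4 FPKM (chr12:24978482-25021863, plus strand, rn6). The GelMA libraries varied among themselves, yet the lowest was above every MFN+GelMA library. The change was -2.29 ± 0.36 (SE, limma adjusted p = 0.0171) and missed in 3 of the 12 fits without a library, at a limma adjusted p of up to 0.0812, and with the 6 libraries of 2 weeks alone (limma adjusted p = 0.0758). Of 16 tested elastic fibre genes Eln fell and Emilin1 rose, against 0.358% and 0.221% of all genes. Fbn1, the microfibril protein fibrillin 1, had a log2 fold change of -0.61 (limma adjusted p = 0.257), and Ltbp4, which helps to assemble elastic fibres, of 0.91 (limma adjusted p = 0.243).

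Some markers of progenitor fibroblasts were lower. Pi16, a peptidase inhibitor that marks these cells, fell from 109, 121 and 108 FPKM to 40.2, 26.3 and 34.7 FPKM. The groups were far apart and narrow (-1.73 ± 0.20, SE, limma adjusted p = 0.00445), and the call held in all 12 fits without a library. Smpd3, a neutral sphingomyelinase, fell by 1.58 on the log2 scale (limma adjusted p = 0.0141), and Efemp1, the matrix protein fibulin 3, fell by 0.86 (limma adjusted p = 0.0417). Of 17 tested genes of the list, which was chosen with earlier results of these data known, these 3 fell and none rose. Of all genes 0.358% were lower. Without MFN+GelMA replicate 2 the count was 4, against 0.767%, and without GelMA replicate 3 it was 2, since Efemp1 missed (limma adjusted p = 0.101). In 10 of the 17 every MFN+GelMA library was below every GelMA library, against 8.62% of all genes. The median was -0.55, -0.72 without MFN+GelMA replicate 2 and -0.43 without GelMA replicate 3. Dpp4, a surface peptidase that marks the same cells, read 45.2, 39.9 and 52.7 FPKM with GelMA and 16.7, 25.9 and 15.4 FPKM with MFN+GelMA. It missed the threshold (limma adjusted p = 0.0722) and passed without replicate 2 (0.0404 by limma). In bulk tissue, fewer cells of a type and less RNA per cell cannot be told apart. Pdgfra, a growth factor receptor of fibroblasts in general, read 62.6, 68.8 and 70.3 FPKM with GelMA and 63.7, 53.0 and 60.4 FPKM with MFN+GelMA (log2 fold change -0.19, limma adjusted p = 0.422).

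The other genes with large falls had varied roles. Cilp, a matrix protein first found in cartilage, read 24.1, 12.6 and 23.0 FPKM with GelMA and 3.41, 6.05 and 2.13 FPKM with MFN+GelMA (-2.13 ± 0.30, SE, limma adjusted p = 0.00956). C1qtnf7, a secreted relative of complement C1q, went from 31.9, 30.1 and 39.3 FPKM to 7.45, 12.6 and 8.03 FPKM (-1.77 ± 0.20, SE, limma adjusted p = 0.00372). Both showed separate groups. Pcsk6, a protease that activates secreted precursors, fell by 1.58 (limma adjusted p = 0.00288) and the aminopeptidase Xpnpep2 by 1.45 (limma adjusted p = 0.0131). The adhesion genes Cadm1 and Pcdh20 fell by 1.62 and 1.83, and the neuronal splicing factor gene Nova1 by 1.44. Cadm1 and Nova1 passed in all 12 fits without a library, but Pcdh20 (limma adjusted p = 0.044) passed in only 3. A few further genes were picked after their values were seen. Ccdc80, an abundant secreted matrix protein, stood at 1025, 1113 and 1035 FPKM with GelMA and 423, 645 and 323 FPKM with MFN+GelMA (limma adjusted p = 0.0321). AABR07054264.1, a predicted gene with no assigned function in the table (chr3:145764931-145765450, plus strand, rn6), read 5.17, 5.81 and 5.53 FPKM with GelMA at 2 weeks and was listed at 0 in all 9 other libraries (limma adjusted p = 1.19e-05).

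Calls among neutrophil genes depended on MFN+GelMA replicate 2. Of 17 listed genes 11 did not reach the minimum of 1 FPKM in 3 libraries, among them the granule genes Mpo, Elane, Ltf, Ngp and Camp, which read at most 0.937 FPKM in any of the 6 libraries. None of the 6 tested genes changed with all libraries; without replicate 2, 4 rose, against a background of 0.656%. The 17 listed genes summed to 155, 97.0 and 500 FPKM in MFN+GelMA replicates 1 to 3 and to 70.1, 75.6 and 33.7 FPKM with GelMA. Most of the sum in MFN+GelMA was Lcn2; without it the sums were 66.6, 30.6 and 88.4 FPKM against 49.3, 56.9 and 29.7 FPKM, so the groups overlapped. Cxcr2, the receptor for neutrophil-attracting chemokines and not tested, read 0.555, 2.94 and 0.741 FPKM with MFN+GelMA and 2.51, 0.545 and 0.204 FPKM with GelMA. Lcn2, an iron-scavenger binding protein of neutrophils and stressed epithelia, read 20.8, 18.7 and 4.01 FPKM with GelMA and 88.6, 66.4 and 412 FPKM with MFN+GelMA. The groups did not overlap, though the limma adjusted p was 0.0535, and 0.0294 without replicate 2. S100a8, a calcium-binding alarmin of neutrophils, read 14.98 and 19.9 FPKM in MFN+GelMA replicates 1 and 3 and was listed at 0 in replicate 2, beside 2.11, 1.42 and 0 FPKM with GelMA. S100a9, its partner, read 12.2, 3.45 and 21.6 FPKM with MFN+GelMA and 2.63, 3.41 and 2.17 FPKM with GelMA. Replicate 2 was thus at the GelMA level for both (limma adjusted p without it 0.0109 and 0.00442). The fourth gene, the granulocyte growth factor receptor Csf3r, had a log2 fold change of 1.26 with replicate 2 and 1.41 without it (limma adjusted p = 0.061 and 0.048).

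Further genes were chosen because they passed only without replicate 2, so a low value in that library comes with the choice. Of 26 tested chemokine ligands 1 rose, Cxcl6, against 0.221% of all genes, and without replicate 2, 3 rose, against 0.656%. Cxcl3, another neutrophil-attracting chemokine, read 2.52, 1.21 and 0.0864 FPKM with GelMA and 8.21, 0.884 and 18.3 FPKM with MFN+GelMA. Mmp3, the matrix protease stromelysin 1, read 2.76, 2.63 and 1.10 FPKM with GelMA and 29.3, 6.49 and 33.9 FPKM with MFN+GelMA. Replicate 2 overlapped GelMA for Cxcl3 and not for Mmp3, and both passed without it (limma adjusted p = 0.0213 and 0.00586). The secreted protease inhibitor Slpi, the chitinase-like protein Chi3l1 and the arginine-making enzyme Ass1 passed in the same way, with log2 fold changes without replicate 2 of 2.42, 2.32 and 2.67. Il6, an inflammatory cytokine, read 3.61, 1.02 and 14.9 FPKM with MFN+GelMA and 1.98, 0.182 and 0.0904 FPKM with GelMA and did not pass either way (limma adjusted p = 0.245 and 0.0751). Of 13 tested genes of pro-inflammatory cytokines and mediators none changed, and without replicate 2 only Ptgs2, the inducible cyclooxygenase, rose (log2 fold change 1.85, limma adjusted p = 0.0171).

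**Figure D3:**
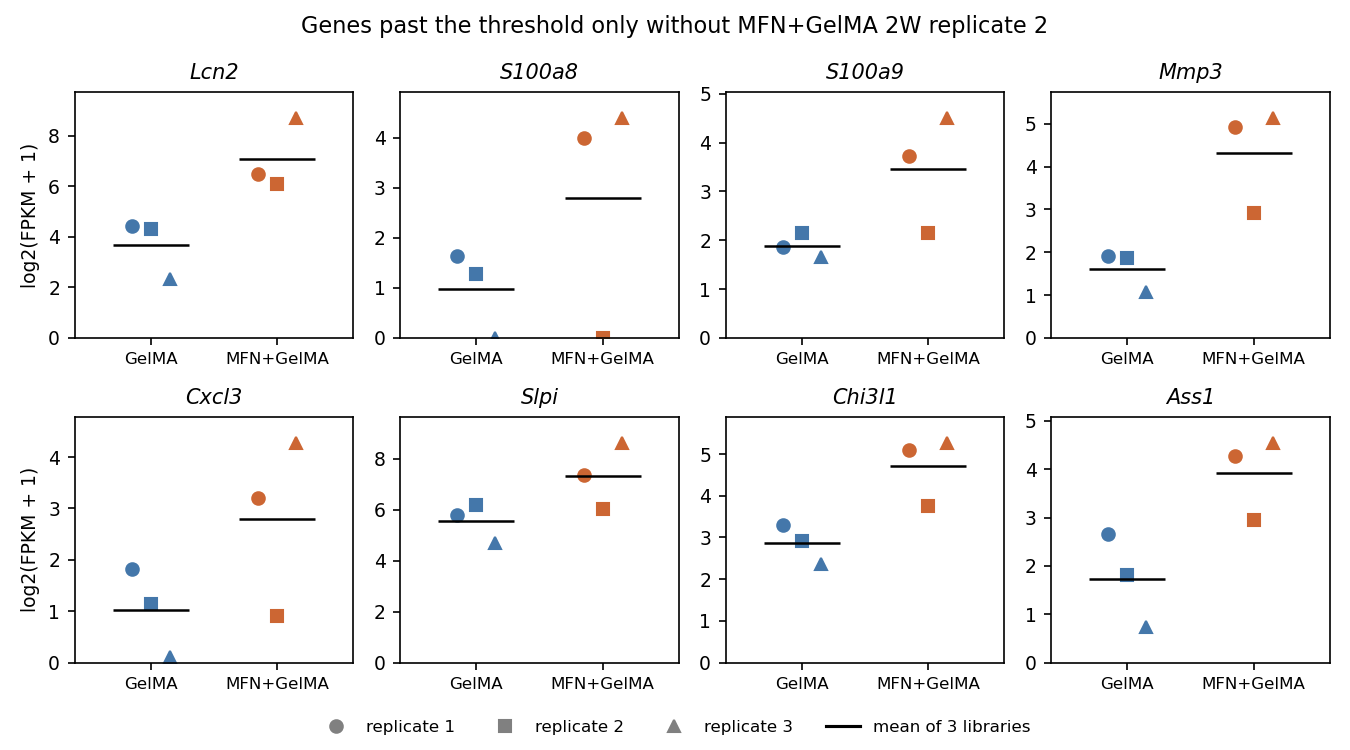
Log2(FPKM + 1) of 8 genes that passed the threshold without MFN+GelMA 2W replicate 2 and missed it with all libraries; each symbol is 1 library and the line is the mean of 3. MFN+GelMA replicates 1 and 3 lie above all GelMA libraries in each panel, and replicate 2 (square) is the lowest of its group.

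Promoter sequences are shown for 4 of these genes, picked after their values were seen, because MFN+GelMA replicates 1 and 3 held the highest levels of each. They are RefSeq promoters on GRCr8, a later build than the rn6 of the expression table, from 250 bases before to 50 bases after the start of the gene. Capitals mark matches, on either strand, to any of 5 motifs. They are the kappa B motif (GGANTTTCC), the AP-1 motif, which was searched as TGANTCA, the TATA box, which was searched as TATAAA, the GC box, which was searched as GGGCGG, and the E-box, which was searched as CACGTG. No matches overlap in these 4 promoters. Cxcl6 lies at chr14:17596368-17596667 on the minus strand, Lcn2 at chr3:36081731-36082030 on the minus strand, S100a9 at chr2:178490573-178490872 on the minus strand and Mmp3 at chr8:12925031-12925330 on the plus strand.

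Cxcl6: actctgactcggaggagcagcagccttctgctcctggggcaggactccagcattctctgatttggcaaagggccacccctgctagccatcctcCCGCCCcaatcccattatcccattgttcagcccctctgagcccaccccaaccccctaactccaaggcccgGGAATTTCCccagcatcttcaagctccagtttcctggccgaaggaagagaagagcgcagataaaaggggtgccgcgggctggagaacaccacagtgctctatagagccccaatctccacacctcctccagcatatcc

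Lcn2: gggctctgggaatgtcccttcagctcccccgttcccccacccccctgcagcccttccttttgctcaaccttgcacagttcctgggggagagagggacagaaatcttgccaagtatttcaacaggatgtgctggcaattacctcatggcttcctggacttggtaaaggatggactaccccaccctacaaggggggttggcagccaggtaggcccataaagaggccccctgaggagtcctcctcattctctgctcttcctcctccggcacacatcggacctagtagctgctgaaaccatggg

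S100a9: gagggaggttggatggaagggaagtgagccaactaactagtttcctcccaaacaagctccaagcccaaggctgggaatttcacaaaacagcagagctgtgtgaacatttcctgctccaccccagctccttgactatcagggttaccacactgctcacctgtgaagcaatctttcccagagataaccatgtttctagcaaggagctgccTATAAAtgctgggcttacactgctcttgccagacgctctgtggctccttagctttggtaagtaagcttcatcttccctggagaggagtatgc

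Mmp3: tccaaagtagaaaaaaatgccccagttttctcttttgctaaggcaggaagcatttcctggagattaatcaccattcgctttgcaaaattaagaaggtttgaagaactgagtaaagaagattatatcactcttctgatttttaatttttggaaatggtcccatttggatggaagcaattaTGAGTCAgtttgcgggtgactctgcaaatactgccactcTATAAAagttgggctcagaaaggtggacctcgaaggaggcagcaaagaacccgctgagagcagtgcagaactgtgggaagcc

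Cxcl6 held the kappa B motif, with its first base 87 bases before the start, and a GC box on the other strand 157 bases before it. Mmp3 held an AP-1 motif 71 bases and a TATA box 32 bases before the start, S100a9 held a TATA box 42 bases before the start, and Lcn2 held no match to these letters. None of the 4 held the E-box. Of 33469 promoters in the reference, 1.28% held the kappa B motif, 7.33% the AP-1 motif, 14.2% the TATA box, 33.1% the GC box and 6.42% the E-box. A match describes the letters only.

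Collagen and matrix-remodelling genes gave few calls, beside 0.579% of all tested genes. None of 22 tested collagen genes changed at a median of 0.35, although 8 were above and 2 below GelMA without overlap (9.72% and 8.62% of all genes). The fibril-associated Col12a1 read 55.9, 44.7 and 68.9 FPKM with MFN+GelMA and 29.6, 13.9 and 29.6 FPKM with GelMA (limma adjusted p = 0.145), and Col5a3, a regulator of fibril size, read 113, 136 and 158 FPKM against 57.2, 52.7 and 66.7 FPKM (0.0645 by limma). The basement membrane chain Col4a5 had a log2 fold change of -1.02 and passed only without replicate 2 (limma adjusted p = 0.0571 and 0.0113). None of 21 tested collagen-processing genes changed; Plod2, a collagen lysyl hydroxylase, read 10.6, 1.42 and 3.43 FPKM with GelMA and 19.5, 16.4 and 54.4 FPKM with MFN+GelMA (limma adjusted p = 0.0729). Among 21 small proteoglycan and matricellular genes none changed, with the tenascin Tnn at 17.1, 2.67 and 9.37 FPKM against 67.0, 45.8 and 57.0 FPKM with MFN+GelMA (0.0817 by limma); without GelMA replicate 3 the thrombospondin Thbs4 alone passed (log2 fold change 1.95, limma adjusted p = 0.0389). Of 10 matrix metalloproteinases none changed, and Mmp3 alone without replicate 2. Of 15 protease inhibitors Timp1 rose, against 0.221% of all genes. Without MFN+GelMA replicate 2 Slpi rose too, against 0.656%, and without GelMA replicate 3 none passed (limma adjusted p of Timp1 0.0745).

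Growth factor pathways gave no call with all libraries, beside 0.579% of all tested genes. None of 23 TGF-beta, 15 BMP, 14 Wnt antagonist and target, 13 FGF or 10 insulin-like growth factor genes changed. Tgfb2, a TGF-beta ligand, read 24.01, 34.7 and 28.6 FPKM with GelMA and 11.7, 15.2 and 12.2 FPKM with MFN+GelMA, without overlap (limma adjusted p = 0.0554, and 0.048 without replicate 2). The BMP antagonist Grem1 and the BMP target Id3 passed only without replicate 2, in opposite directions (log2 fold changes without it of 1.67 and -1.08). Fgf10, a mesenchymal growth factor, read 5.66, 9.49 and 3.24 FPKM with GelMA and 1.19, 1.01 and 0.222 FPKM with MFN+GelMA (limma adjusted p = 0.0732).

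Among macrophage genes, the 19 listed genes summed to 10135 to 12193 FPKM with GelMA and to 11636 to 12885 FPKM with MFN+GelMA, and none of 18 tested genes changed (median -0.11). Most of the sum with MFN+GelMA was Lyz2, at 8267, 7268 and 7470 FPKM, against 5878, 4910 and 6148 FPKM with GelMA (limma adjusted p = 0.438). In the list 1 gene stood above and 3 below GelMA without overlap (9.72% and 8.62% of all genes). Cd68, a lysosomal protein of macrophages, read 687, 703 and 971 FPKM with GelMA and 535, 583 and 570 FPKM with MFN+GelMA (limma adjusted p = 0.355). None of 11 giant cell and osteoclast genes changed either, with 7 of 11 log2 fold changes positive, and 5 genes above and 2 below GelMA without overlap (9.72% and 8.62% of all genes). The 13 listed genes summed to less in each MFN+GelMA library, 3587 to 4609 FPKM, than in each GelMA library, 4961 to 6747 FPKM. Most of that sum was Gpnmb, a glycoprotein of macrophages and osteoclasts, which read 4622, 4524 and 6330 FPKM with GelMA and 3570, 3244 and 2710 FPKM with MFN+GelMA (limma adjusted p = 0.245). Spp1, the secreted phosphoprotein osteopontin, read 248, 63.8 and 45.6 FPKM with GelMA and 476, 286 and 414 FPKM with MFN+GelMA (0.141 by limma). None of 13 MHC class II genes changed, while 6 stood above and 0 below GelMA without overlap (9.72% and 8.62% of all genes). Cd74, the invariant chain of class II complexes, read 817, 955 and 791 FPKM with GelMA and 1345, 1513 and 1753 FPKM with MFN+GelMA, a log2 fold change of 0.84 (limma adjusted p = 0.0705).

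Interferon-stimulated genes had a common sign without a call. Log2 fold changes were negative in 31 of 32 tested genes, at a median of -0.74, -1.04 without MFN+GelMA replicate 2 and -1.16 without GelMA replicate 3. Over all 11739 tested genes 5992 were positive. None of the list passed with all libraries, and 9 had an unadjusted p under 0.05 by limma, beside 1679 of all 11739 genes. In the list 0 stood above and 6 below GelMA without overlap (9.72% and 8.62% of all genes). The list summed to 2855, 4132 and 1818 FPKM with GelMA and to 1256, 2260 and 1577 FPKM with MFN+GelMA, so GelMA replicate 3 lay below MFN+GelMA replicate 2. Oas3, an antiviral RNA sensor, read 5.89, 5.30 and 4.46 FPKM with GelMA and 1.42, 2.98 and 2.37 FPKM with MFN+GelMA. It missed the threshold (limma adjusted p = 0.0654) and was the single gene of the list to pass without replicate 2 (0.0373 by limma). Without GelMA replicate 3 Oasl, a relative of Oas3, was the single gene to pass (limma adjusted p = 0.0389). Of 23 complement genes none changed, and 4 stood above and 7 below GelMA without overlap (9.72% and 8.62% of all genes). Without replicate 2, 1 rose and 1 fell. The gene that rose was Cfi, a protease that inactivates complement, at 0.473, 0.721 and 0.360 FPKM with GelMA and 1.96, 1.27 and 2.27 FPKM with MFN+GelMA (limma adjusted p = 0.0817, and 0.0498 without replicate 2). The gene that fell was C7, of the membrane attack complex, which read 125, 165 and 124 FPKM with GelMA and 51.6, 89.3 and 41.5 FPKM with MFN+GelMA (limma adjusted p = 0.0665, and 0.0139 without replicate 2).

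Vessel gene values rested in part on GelMA replicate 3, the library low in them. None of 19 endothelial and 16 smooth muscle and pericyte genes changed. The endothelial median was 0.61 and 0.16 without that library, and the smooth muscle median 0.55 and 0.28. Nos3, the endothelial nitric oxide synthase, read 2.51, 3.25 and 0.913 FPKM with GelMA and 6.92, 5.19 and 5.52 FPKM with MFN+GelMA (limma adjusted p = 0.0729). Desmin, encoded by Des, read 32.6, 29.1 and 11.6 FPKM with GelMA and 60.3, 89.5 and 61.0 FPKM with MFN+GelMA (0.0554 by limma). In both genes GelMA replicate 3 was the lowest of its group. Without it the log2 fold change of Nos3 went from 1.16 to 0.82 (limma adjusted p = 0.105) and that of Des from 1.59 to 1.14 (limma adjusted p = 0.0502), and no gene of either list passed. Adipoq, the fat hormone adiponectin, read 95.3, 154 and 9.25 FPKM with GelMA and 0.305, 6.31 and 4.89 FPKM with MFN+GelMA, and its log2 fold change of -3.80 ± 1.59 (SE) did not pass (limma adjusted p = 0.304). None of 17 white adipocyte genes changed (median -0.39), and 0 stood above and 6 below GelMA without overlap (9.72% and 8.62% of all genes).

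Metabolic and stress genes gave few calls, beside 0.579% of all tested genes. None of 27 hypoxia and glycolysis genes changed with all libraries, but 10 were above GelMA without overlap, against 9.72% of all genes. Gapdh, a glycolytic enzyme often used as a reference gene, read 272, 218 and 300.2 FPKM with GelMA and 416, 497 and 438 FPKM with MFN+GelMA (limma adjusted p = 0.0729), and Hif1a, the oxygen-sensitive transcription factor, passed without replicate 2 (0.0351 by limma, log2 fold change 1.09). Of 33 oxidative phosphorylation genes none changed, 27 had a positive sign, beside 5992 of all 11739 genes, and the median was 0.16. Ddit4 was the single riser among 25 integrated stress response genes and among 16 glucocorticoid-responsive genes, against 0.221% of all genes, with list medians of -0.01 and 0.25. Without replicate 2 the lipoprotein receptor Vldlr of the first list fell as well (limma adjusted p = 0.027). In the second list Lcn2 then rose and Tsc22d3, a glucocorticoid-induced leucine zipper protein, fell (limma adjusted p = 0.0294 and 0.0309), against 0.656% and 0.767% of all genes. None of 21 immediate early genes changed (median -0.23), and 1 lay above and 7 below GelMA without overlap (9.72% and 8.62% of all genes); Fos read 104, 206 and 106 FPKM with GelMA and 29.3, 15.03 and 62.5 FPKM with MFN+GelMA (limma adjusted p = 0.186). None of 29 cell cycle genes and none of 16 heat shock genes changed, with medians of 0.07 and -0.03.

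**Figure D4:**
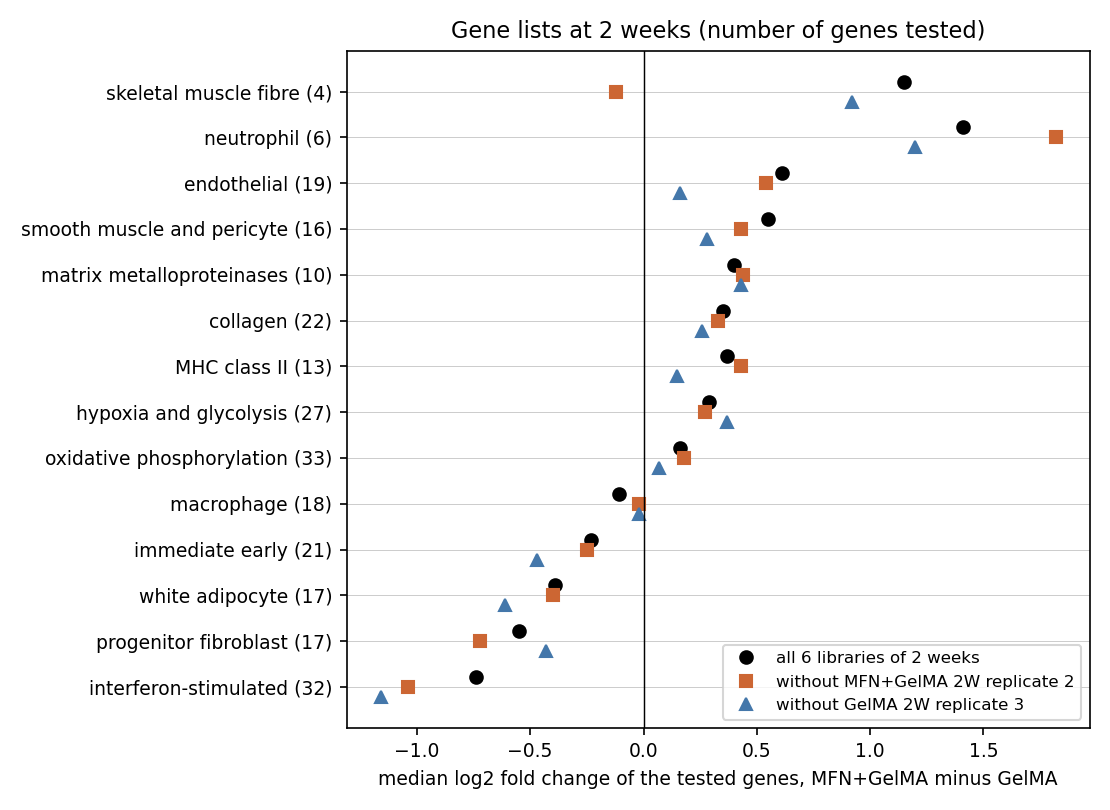
Median log2 fold change of the tested genes of 14 lists, MFN+GelMA minus GelMA at 2 weeks, with all libraries (circle), without MFN+GelMA 2W replicate 2 (square) and without GelMA 2W replicate 3 (triangle). The muscle fibre median goes from 1.15 to -0.12 without replicate 2, and the endothelial median from 0.61 to 0.16 without GelMA replicate 3.

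The separate libraries of 4 weeks gave a second look at the 68 genes, since they share no sample with those of 2 weeks. Of all 11739 genes 24.4% changed between the materials at 4 weeks by limma. Of the 68, 46 did (67.6% of them, and 1.61% of the 2866 genes of 4 weeks), 43 in the same direction, of which 33 were lower and 10 higher. Zic1 (-2.97), Eln (-2.75), C1qtnf7 (-1.83) and Tnnt2 (2.32) had log2 fold changes at 4 weeks near those at 2 weeks, all past the threshold by limma. Without GelMA 4W replicate 2, the library high in fat genes, 44 of the 68 passed at 4 weeks, beside 20.7% of all genes. The fit took its estimate of spread from all 12 libraries at both times.

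For 29 of the 68 (42.6%) the effects of 2 and 4 weeks differed by limma, against 14.0% of all genes. Without GelMA 4W replicate 2 it was 25, against 12.2%. The 68 were chosen by their effect at 2 weeks, which is part of this difference. A share above that of all genes therefore comes in part with the choice. Cxcl6 had a log2 fold change of 4.54 at 2 weeks and 0.32 at 4 weeks (limma adjusted p of the difference 0.0175). Meox1 went from 1.77 to 0.09 and Adamts4 from 1.53 to -0.05 (limma adjusted p of the difference 0.0101 and 0.0194). The reverse sign was seen for Cadm1, lower at 2 weeks (-1.62) and higher at 4 weeks (0.94), for Aard (-2.02 and 0.90), and for Glt8d2, a glycosyltransferase-like gene named for its reversal (0.75 and -0.49), with all 6 effects past the threshold by limma; without GelMA 4W replicate 2 the effect on Aard at 4 weeks missed (limma adjusted p = 0.0583). Pcsk6 and Efemp1 were further down at 4 weeks (-2.64 and -2.04), and Pi16 less so (-0.67).

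**Figure D5:**
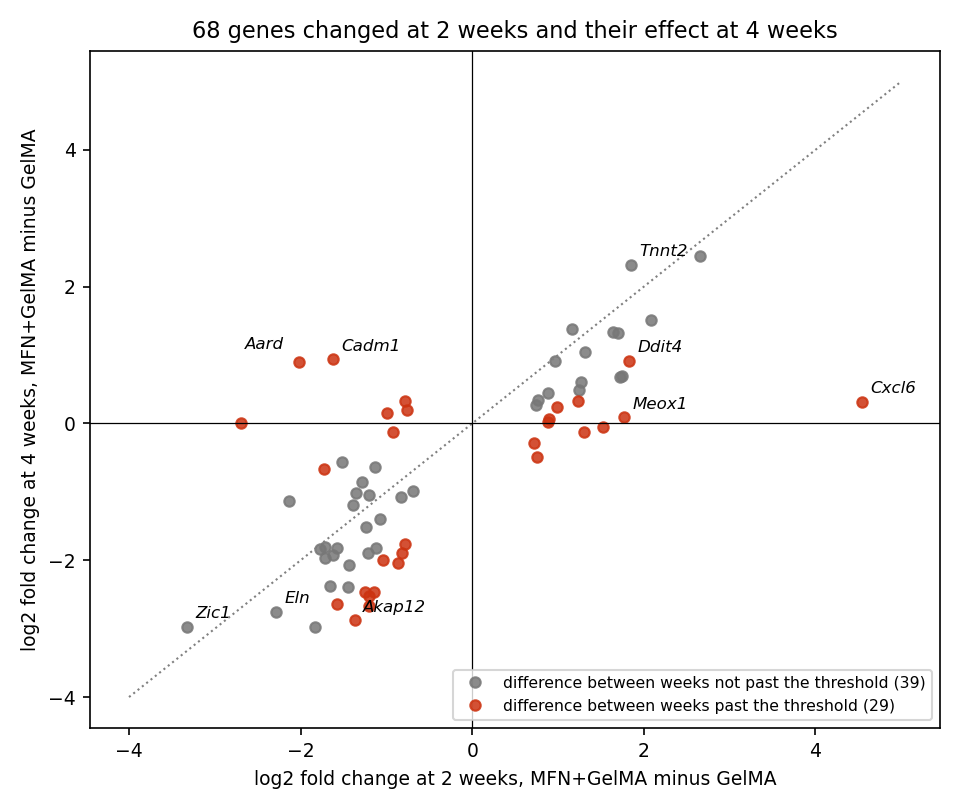
Log2 fold change of MFN+GelMA minus GelMA at 2 weeks (x axis) and 4 weeks (y axis) for the 68 genes changed at 2 weeks; the dotted line marks equal effects and red points are the 29 genes whose effects differed between weeks. Cxcl6 lies at 4.54 and 0.32, and Aard and Cadm1 lie on opposite sides of 0 at the 2 times.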

How the data were processed

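Total RNA, depleted of ribosomal RNA, was made into stranded libraries, per the labels' protocols. Per the submitters' processing notes the authors used cutadapt 1.9.3, HISAT2 and Cuffdiff with rn6. No annotation, strand setting or other version is given in the sources used here. Of the deposited columns, FPKM per the file headers was the tested unit; the authors' deposited columns headed Counts hold a count-like signal that is not whole, so no count model was run. Rows of 1 symbol were summed (22062 rows, 21797 genes). limma 3.58.1 in R 4.3.3 was fitted to log2(FPKM + 1) in all 12 libraries, with a mean for each group, an intensity trend, and 8 residual and 3.34 prior degrees of freedom; tests were two-sided over the 11739 genes. Genes were named by a rule: the 15 largest rises and 15 largest falls among changed genes averaging 2 FPKM or more in 1 group and properly named, up to 4 genes of smallest p per list, and 8 rises and 8 falls called only without MFN+GelMA 2W replicate 2; some genes it selects are not reported here. The members, 45 gene lists and tests were chosen with earlier results of these data known. Genes of low FPKM rest on few fragments and are the least precise. Alternatives covered filters, pseudocounts, scaling, variance models and left-out libraries. Pairing was checked by correlating same-numbered libraries. Sequences are from RefSeq promoters; 6 of the 9 symbols looked up were found there.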

Additional observations from a re-analysis of the deposited data

Results flagged for a closer look

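For 29 of the 68 genes that changed at 2 weeks the effect of MFN differed between 2 and 4 weeks, and 10 of them are given here. Glt8d2, Ccdc80 and AABR07054264.1, named above, were among the others. The difference itself was tested by limma and adjusted over all genes. These genes were chosen by their 2-week effect, which is part of that difference. The difference of log2 fold changes, 4 weeks minus 2 weeks, was -4.22 for Cxcl6, -1.68 for Meox1, -1.59 for Adamts4, -1.41 for Coro6 and -0.90 for Ddit4, all higher at 2 weeks. It was 2.92 for Aard, 2.56 for Cadm1 and 1.06 for Pi16, which were lower at 2 weeks and less so, or higher, at 4 weeks. It was -1.17 for Efemp1 and -1.06 for Pcsk6, which were lower still at 4 weeks. For Cxcl6 the 2-week libraries ranged from 5.07 FPKM in MFN+GelMA replicate 2, the library with muscle signal, to 64.1 FPKM in replicate 3, and without replicate 2 the difference was -5.35 (limma adjusted p = 2.63e-05). The difference missed the threshold for Ddit4 without GelMA 4W replicate 2 or GelMA 2W replicate 3 (limma adjusted p = 0.0747 and 0.0857), and for Pi16 without MFN+GelMA 2W replicate 2 (limma adjusted p = 0.0635).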

How the results depend on the processing

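The count of 68 changed genes stayed within 1.5 times under other filters, pseudocounts of 0.1 and 0.5, median ratio, upper quartile and nuclear scaling, no trend, robust variances, listed zeros as missing and rows kept apart. It was 15 with only the 6 libraries of 2 weeks, 43 with 5 of them (without MFN+GelMA 2W replicate 2), 376 without the 3 libraries that stood apart (MFN+GelMA 2W replicate 2, GelMA 2W replicate 3 and GelMA 4W replicate 2), 124 after quantile normalization and 107 with array weights. Leaving out 1 library gave 23 to 167. Of the 68 genes, 44 to 48 passed at 4 weeks and 25 to 28 differed between weeks when each of those 3 was left out, fits added after seeing the data. On the count-like columns, chosen after seeing the data, limma gave 105, and 168 without that replicate. edgeR and DESeq2 were not run because the values are not whole counts. Same-numbered libraries of 2 weeks showed no clear pairing in their deviations from the group means (r = -0.018, 0.098 and 0.033). Libraries of different number gave r from -0.083 to 0.045. Such deviations cancel within a group, so this check cannot exclude pairing. With a replicate block within each week 6 genes passed, 5 of them among the 68. Of the 30 genes with the largest changes 10 passed with the 6 libraries alone, and none reversed under the alternatives run. Their groups do not overlap, so leaving out a library could not reverse them. Genes near 1 FPKM are the least precise, and 3 libraries a group limit what can be called.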
